A study of Mus musculus with 26 samples.

Results

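The mouse has 9 paired-box genes, Pax1 to Pax9, and their promoters were followed here through total and sequential chromatin immunoprecipitation in embryonic stem cells (ESCs). A region of a deposited table was linked to a Pax gene when it overlapped the window of 1.5 kb either side of one of the gene's RefSeq start sites on the mm10 genome. Where several regions did so, the one with most overlap was kept for that gene and table. The family makes up 9 of the 26180 RefSeq genes with a start site, with 14 start sites among them, and each of the 9 genes was linked to a region in 5 or more of the 12 tables.

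Pax proteins are transcription factors that bind DNA through a paired domain and set up tissues of the embryo. Pax1 and Pax9 act in the sclerotome, thymus and teeth, Pax2, Pax5 and Pax8 in the midbrain-hindbrain boundary, kidney, B cells and thyroid, Pax3 and Pax7 in muscle precursors and neural crest, and Pax4 and Pax6 in the pancreatic islet and eye. Such genes are silent or nearly so in ESCs, and their promoters are known for bivalent chromatin, in which H3K4me3, a mark of gene starts, and H3K27me3, the mark laid down by Polycomb repressive complex 2, lie on the same nucleosome. In a K4-K27 reChIP chromatin was pulled down with an H3K4me3 antibody, released, and pulled down again with an H3K27me3 antibody. A K27-K4 reChIP used the antibodies in the opposite order. The paper states that its H3K4me3 antibody was reported to detect H3K4me2 too, at lower efficiency. Some of the signal called H3K4me3 here, and some of the reChIP signal, may therefore come from H3K4me2.

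The cells were E14 ESCs, a non-clonal wild-type mouse line grown without feeders in serum and LIF, and clones of the E14 line that were wild type (WT, clones 57 and 58) or lacked both Dppa2 and Dppa4 (DPPA2/4 DKO, clones 43 and 53). DPPA2 and DPPA4 are a pair of chromatin proteins of the early embryo. Each line had 2 replicates of 4 kinds of library, the K4-K27 and K27-K4 reChIPs and, set aside after the first precipitation, the total of each mark, all on MNase-digested, fixed chromatin. 1 IgG–IgG control library came from E14 replicate 1 and 1 from WT clone 57, which gave 26 libraries in all. Replicates of WT and DKO were separate clones, so that a genotype stood on 2 clones, and the E14 replicates were biological replicates taken at different passages. E14 replicate 1 was sequenced in batch A, E14 replicate 2 in batch B and all clones in batch C, so that line and batch cannot be told apart between E14 and the clones, and their values are set side by side without a test. Depth ran from 6741244 to 47903462 reads per library, with a median of 16875025.

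The knockout was checked first at the Dppa2 and Dppa4 promoters. Total H3K4me3 at the Dppa2 promoter (chr16:48309301-48312450) stood at 1.90 and 0.77 in WT clones 57 and 58 and at 2.08 and 1.34 in DKO clones 43 and 53, as log2 RPM per kb of region (reads scaled to the size of the library and the length of the region). At the Dppa4 promoter (chr16:48283051-48286200) it stood at 2.34 and 1.45 in the WT clones and at 2.39 and 1.56 in the DKO clones. The promoter mark was thus still present in the DKO clones at both genes. The positions of the deletions were not used here, and a mark at the promoter does not check a deletion elsewhere in the gene. Promoters of all 6 ESC markers examined (Pou5f1, Nanog, Sox2, Esrrb, Zfp42 and Tdgf1) were listed as total H3K4me3 regions in E14, WT and DKO. Of 5 fibroblast genes, Col1a1, Col1a2 and Thy1 were listed in E14 and WT and Col1a1 and Thy1 in DKO, while Lum and Postn were listed in none of these 3 tables. The total H3K27me3 tables listed 1 of the ESC promoters, Esrrb, in E14 and WT and none in DKO. The K4-K27 tables nonetheless listed 5 of the 6 in E14 and all 6 in WT and DKO, and those of K27-K4 listed all 6 in E14 and Esrrb alone in WT and DKO, so that a listing in a reChIP table was not limited to promoters with a total H3K27me3 region.

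Pax3 and Pax4 had no sequence in the set of promoters used here. That set (GRCm38.p6, the build also called mm10) held 10 promoters of 7 members. 4 of these are shown because Pax8 and Pax1 had the largest differences between DKO and WT clones among them, and Pax5 and Pax9 are their close relatives with smaller ones. Every CpG is in capitals:
Pax8 (chr2:24475550-24475849, minus strand): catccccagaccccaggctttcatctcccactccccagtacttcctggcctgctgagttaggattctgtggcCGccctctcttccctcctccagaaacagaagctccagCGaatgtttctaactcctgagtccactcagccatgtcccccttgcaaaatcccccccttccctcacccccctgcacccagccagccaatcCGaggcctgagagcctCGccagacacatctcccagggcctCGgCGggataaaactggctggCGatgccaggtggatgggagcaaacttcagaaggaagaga
Pax1 (chr2:147364744-147365043, plus strand): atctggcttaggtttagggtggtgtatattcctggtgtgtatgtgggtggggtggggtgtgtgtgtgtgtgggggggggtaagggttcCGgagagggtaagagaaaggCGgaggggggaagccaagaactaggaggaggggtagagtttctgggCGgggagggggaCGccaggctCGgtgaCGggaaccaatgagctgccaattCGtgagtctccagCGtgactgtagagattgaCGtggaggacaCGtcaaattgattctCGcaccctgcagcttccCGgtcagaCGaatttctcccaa
Pax9 (chr12:56695221-56695520, plus strand): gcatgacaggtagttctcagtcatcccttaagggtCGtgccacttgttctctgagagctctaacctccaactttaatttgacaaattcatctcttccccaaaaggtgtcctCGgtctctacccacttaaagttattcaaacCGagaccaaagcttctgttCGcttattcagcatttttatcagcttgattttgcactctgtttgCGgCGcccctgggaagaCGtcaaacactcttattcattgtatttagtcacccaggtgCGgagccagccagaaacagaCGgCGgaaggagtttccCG
Pax5 (chr4:44710645-44710944, minus strand): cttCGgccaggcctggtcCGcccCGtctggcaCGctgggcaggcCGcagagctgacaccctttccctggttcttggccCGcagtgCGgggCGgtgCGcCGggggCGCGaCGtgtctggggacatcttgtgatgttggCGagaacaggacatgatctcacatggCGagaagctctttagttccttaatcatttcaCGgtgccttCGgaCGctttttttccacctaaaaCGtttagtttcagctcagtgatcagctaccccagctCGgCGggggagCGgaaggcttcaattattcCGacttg
The Pax8 promoter holds 7 CpGs, the Pax1 promoter 13, the Pax9 promoter 11 and the Pax5 promoter 23 in 300 bases. Across the 10 Pax promoters the count ran from 7 to 30 with a median of 16.5, against a median of 7 over all 32851 RefSeq promoters of this length, and 52.1% of all promoters have at least as many CpGs as that of Pax8. The GC box GGGCGG (or CCGCCC on the other strand) is found in 6 of the 10, those of Pax1, Pax5, Pax7 and Pax8 and 2 of the 3 of Pax2, and in 35.7% of all promoters. TATAAA (or TTTATA) is found in none of the 10 and in 13.6% of all promoters.

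All 9 Pax promoters lay in a region listed by both E14 reChIP tables, with the same coordinates in each. Of the 24540 regions of the E14 K4-K27 table, 21857 had the same coordinates in that of K27-K4, so this was not specific to Pax genes. In the WT clones 332 of the 26544 K4-K27 regions had the same coordinates in the K27-K4 table. Whether the E14 reChIP regions were called separately for each order was not tested. A listing in both E14 reChIP tables is therefore not read as agreement between the orders. For comparison, the K4-K27 table listed a region for 58.7% of all genes with a start site and the K27-K4 table for 66.2%. The Pax regions were wide, from 5.55 kb at Pax8 and 6.6 kb at Pax4 to 37.8 kb at Pax6 and 38.1 kb at Pax7, whereas the median region of the E14 K4-K27 table was 3.0 kb and 5.84% were 10 kb or wider. The Pax regions were kept by most overlap with a promoter window, which favours wide regions. The other regions were not chosen in this way, so the widths are not set against a like set. The region at Pax6 (chr2:105656251-105694050) held all 4 of its start sites and touched 14 of its 16 annotated exons. At Pax3 (chr1:78186601-78222300) it ran from 25.2 kb upstream of the start to 10.5 kb into the gene and touched 4 of 10 exons. At Pax8 (chr2:24472051-24477600) it covered 2 of 12 exons and 6.45% of the gene body.

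**Figure D1:**
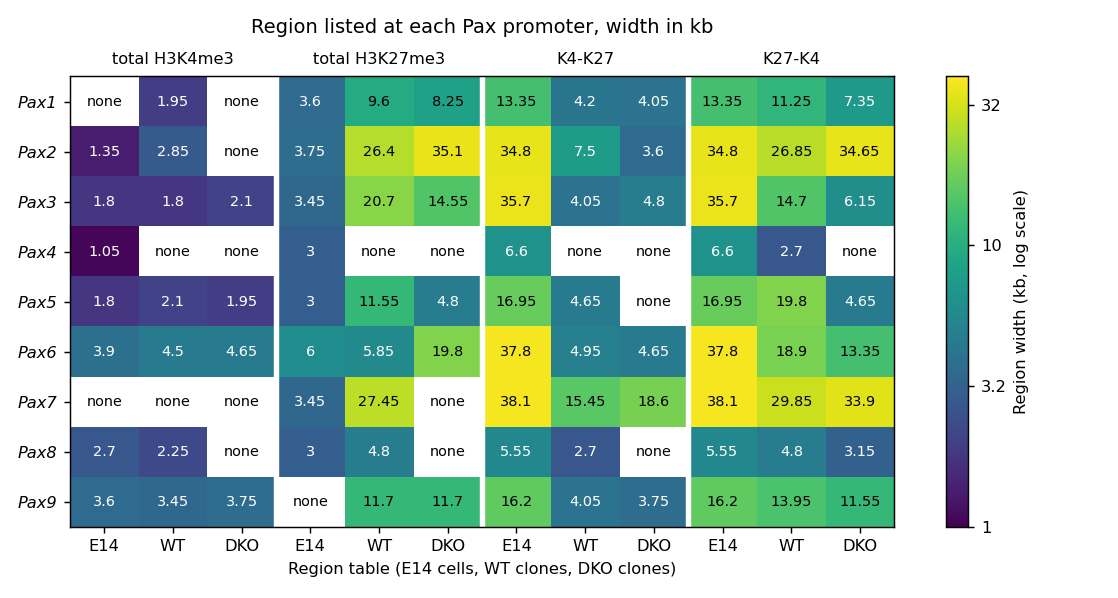
Width in kb of the region kept for each Pax gene (rows) in each of the 12 tables (columns, grouped by ChIP), coloured on a log scale, with "none" where the table lists no region in the window. All 9 genes have a region in both E14 reChIP tables, with the same coordinates in each. 4 have one in the DKO total H3K4me3 table, and Pax7 has no total H3K4me3 region in any line.

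The totals were listed less evenly. The E14 total H3K4me3 table held a region for 7 of the 9 genes and lacked Pax1 and Pax7, whose nearest such regions lay 169 kb and 92.4 kb from a start site. The E14 total H3K27me3 table held 8 and lacked Pax9, where the nearest region lay 2.58 kb away, just outside the window. Just inside it was the E14 total H3K4me3 region linked to Pax4, which overlapped the window by 40 bases. In the WT clones 7 members had a region of total H3K4me3 and 8 one of total H3K27me3, while 8 were in the K4-K27 table and 9 in that of K27-K4. In the DKO clones the numbers were 4, 6, 6 and 8. By comparison, 60.2% and 15.8% of all genes had a total H3K4me3 or total H3K27me3 region in WT and 56.1% and 17.6% in DKO. In E14 these shares were 53.2% and 12.1%. For K4-K27 and K27-K4 they were 59.4% and 33.7% in WT and 57.8% and 32.1% in DKO. The 4 genes with a total H3K4me3 region in DKO were Pax3, Pax5, Pax6 and Pax9. Regions were called separately in each line, so a listing can also follow the depth and the calling of that line.

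Pax3 and Pax6 were listed in all 12 tables, Pax2, Pax5 and Pax9 in 11, Pax1 in 10, Pax8 in 9, Pax7 in 8 and Pax4 in 5. Pax8 had a region in every E14 and WT table and, in DKO, in the K27-K4 table alone (chr2:24473401-24476550, 3.15 kb). Pax5, which is needed for B cell commitment, had a K27-K4 region of 19.8 kb in WT. In DKO 2 K27-K4 regions lay in its window, and 4.65 kb is the width of the kept region alone. Pax3 had a K27-K4 region of 14.7 kb in WT and 6.15 kb in DKO, while Pax2 went the other way, from 26.85 kb to 34.65 kb.

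**Figure D2:**
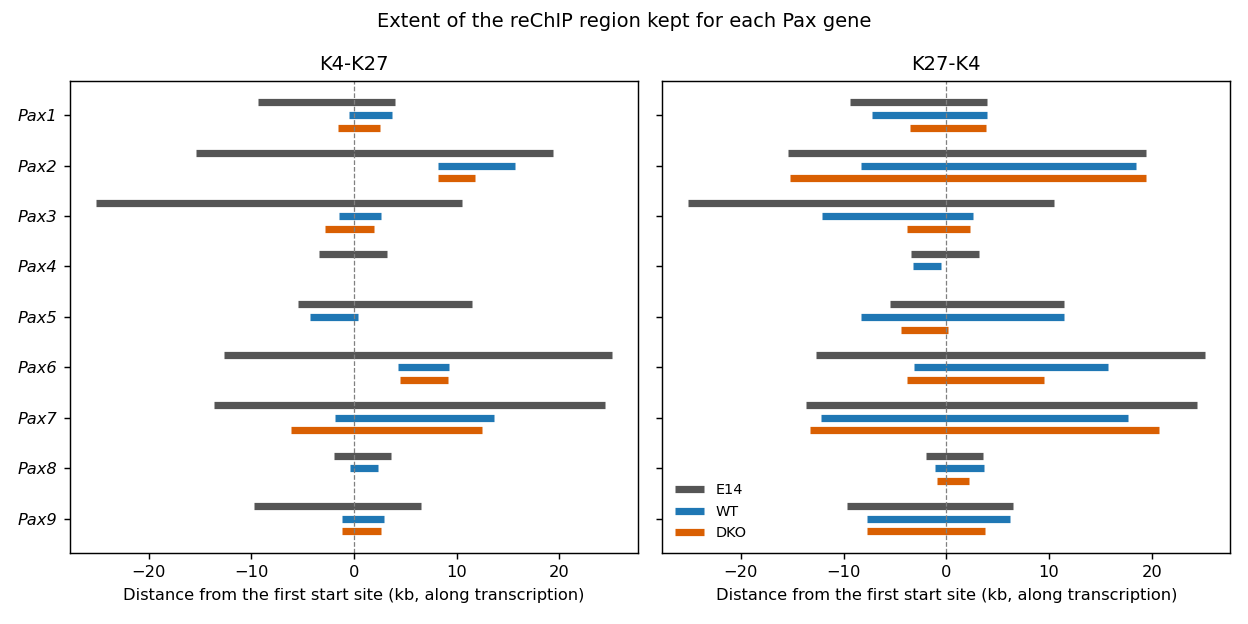
Extent of the region kept for each Pax gene in the K4-K27 (left) and K27-K4 (right) tables, drawn in kb along the direction of transcription from the first start site (dashed line), with 1 bar per line. The E14 bars are the widest at 8 of 9 genes on the right, where E14 regions were wider in general (median 2.4 kb over all K27-K4 regions in E14, 0.9 kb in WT and 0.9 kb in DKO). Pax4, Pax5 and Pax8 have no DKO bar on the left.

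To set E14, WT and DKO side by side, values were read over the 9 regions shared by both E14 reChIP tables, which also carry the clone libraries. Enrichment is given as the log2 value minus the log2 value of the IgG–IgG library of the same region (E14 replicate 1 for E14, WT clone 57 for both genotypes of clones). In E14 both reChIPs stood far above IgG–IgG at each member. K4-K27 lay 2.42 to 3.07 above it in replicate 1 and 2.14 to 3.30 in replicate 2, and K27-K4 lay 2.19 to 2.97 and 2.81 to 4.41 above it. Over all 21857 shared regions the medians were 1.00 and 1.87 for K4-K27 and 1.60 and 2.58 for K27-K4, so the Pax regions lay above the median region in both replicates and both orders.

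The in-line totals were weaker over these regions. Total H3K4me3 stood 0.31 to 0.87 above IgG–IgG in replicate 1 and 0.12 to 0.88 in replicate 2, below the medians of 0.95 and 1.16 over all shared regions. Total H3K27me3 stood 0.83 to 1.46 and 0.80 to 1.57 above IgG–IgG, against medians of 0.20 and 0.15 over all shared regions. The Pax regions were thus poorer in total H3K4me3 and richer in total H3K27me3 than the median shared region. These levels depend on the width averaged over, and within the narrower regions of the E14 total H3K4me3 table the 7 listed members stood 0.93 to 1.90 above IgG–IgG in replicate 1 and 0.88 to 2.06 in replicate 2.

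In E14 the K4-K27 level was highest at Pax5 (2.37 and 2.60 in replicates 1 and 2), Pax2 (2.41 and 2.45) and Pax9 (2.33 and 2.50), as log2 RPM per kb. These 3 overlapped each other. Pax8 (1.98 and 2.62), Pax3 (2.25 and 2.14), Pax6 (2.03 and 2.29), Pax7 (2.22 and 2.00) and Pax1 (2.09 and 2.00) followed, each overlapping its neighbour in this order. Pax4, a regulator of islet beta cells, was lowest at 1.54 and 0.98, below all the others in each replicate. The K27-K4 order was alike at its ends, with Pax5 first (2.27 and 3.71) and Pax4 last (1.05 and 1.64). E14 replicate 2 gave the higher K27-K4 value at all 9 genes.

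**Figure D3:**
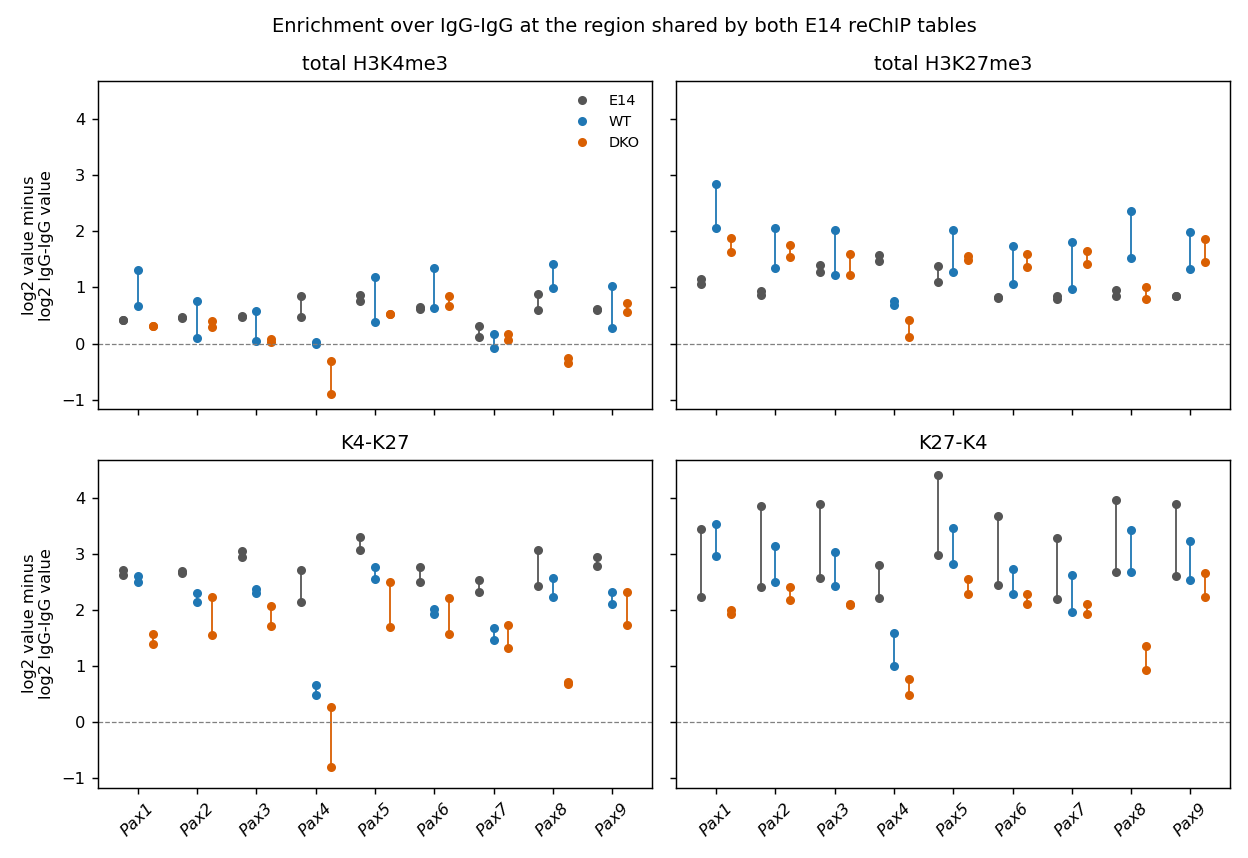
Enrichment over IgG–IgG (log2, vertical axis) of each Pax gene in each ChIP over the region shared by both E14 reChIP tables, with 2 libraries (points joined by a line) for E14, WT and DKO. In DKO, Pax8 lies between 0.69 and 0.72 for K4-K27 whereas its WT clones lie at 2.23 and 2.56, and Pax4 is the lowest gene for K4-K27 in the WT and DKO clones.

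The clones gave the same regions other levels. In WT clones 57 and 58 the median Pax enrichment was 1.03 and 0.28 in total H3K4me3 and 2.02 and 1.28 in total H3K27me3. Among the reChIPs, K4-K27 had medians of 2.33 and 2.15 and K27-K4 medians of 3.14 and 2.50. Clone 57 was the higher of the WT clones in all 4 medians. In DKO clones 43 and 53 the medians were 0.29 and 0.31, 1.60 and 1.41, 2.06 and 1.54, and 2.10 and 2.10. At Pax4 the K4-K27 enrichment was 2.70 and 2.14 in E14, 0.48 and 0.66 in the WT clones and 0.27 and −0.80 in the DKO clones, and its total H3K4me3 in the clones lay between −0.91 and 0.02. WT and DKO did not overlap in K4-K27 at Pax4, and these values rest on few reads, 64 and 84 in the WT clones and 63 and 37 in the DKO clones.

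The order of the members also differed between genotypes. By mean level over these regions Pax8, the thyroid and kidney factor, ranked 1 of 9 for total H3K4me3 in both E14 and WT and 8 of 9 in DKO. Pax8 was the highest in E14 replicate 2 (0.44) and WT clone 58 (0.57). Pax2 was higher in E14 replicate 1 (0.22 against 0.16 at Pax8), and Pax5 was higher in WT clone 57 (1.16 against 1.01 at Pax8). By mean level in WT, Pax8 ranked 3 in total H3K27me3, 5 in K4-K27 and 4 in K27-K4, and in DKO 8 in each of these. Pax1, Pax8 and Pax4 took ranks 7, 8 and 9 in all 4 ChIPs in DKO. Pax5 and Pax2 took ranks 1 and 2 in both reChIPs in E14, WT and DKO, and their values overlapped in each but K4-K27 of the WT clones (2.74 and 2.54 against 2.38 and 2.23).

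The comparison of DKO with WT clones asked which Pax promoters depended on DPPA2 and DPPA4 for their marks. It was run over all regions of the WT and DKO tables of a ChIP with limma, and a region was called at an adjusted p under 0.05 and a log2 difference above 1. 1 of the 7 members with a total H3K4me3 region was called lower in DKO, against 2.47% of all 64063 regions, and none was called higher (0.254% of all). For total H3K27me3, 0 of 8 members were called lower (1.78% of 53286) and 0 higher (0.976%). For K4-K27, 0 of 8 were called lower (1.19% of 53855) and 0 higher (0.00557%). For K27-K4, 1 of 9 was called lower (2.24% of 59260) and 0 higher (0.027%). In both cases the gene was Pax8. A missing call does not show an unchanged mark. In data simulated with 200 changed regions, a log2 shift of 3 was recovered in 17% (K4-K27) to 77% (total H3K27me3) of the regions given it. The adjusted p depends on how many regions change, so these shares do not measure the power of the fits. Each member was read at its region in the WT table, where WT had to be high enough for a region, which favours lower values in DKO by the choice of regions. Over the WT regions alone 4.93% were called lower in total H3K4me3, 4.32% in total H3K27me3, 2.11% in K4-K27 and 3.46% in K27-K4. An unadjusted p under 0.05 was found by limma in 8 of the 32 member results, against 10.6%, 15.4%, 15.8% and 18.9% of all regions in the same order of ChIPs. The 8 were those of Pax1 for total H3K4me3 and both reChIPs, of Pax4 for K27-K4 and of Pax8 for all 4 ChIPs. These shares of all regions cover WT and DKO regions together, whereas members were read at WT regions, so the count is not set against a like set.

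Pax8 stood far lower in both DKO clones than in either WT clone. Total H3K4me3 over its region (chr2:24473401-24475650) stood at 2.20 in WT clone 57 (195 reads) and 1.44 in clone 58 (102 reads), and at −0.23 in DKO clone 43 (52 reads) and −0.28 in clone 53 (45 reads). Both DKO values lay below both WT values and below the IgG–IgG library, which stood at 0.32 (42 reads). The difference was −2.07 on the log2 scale (SE 0.56, 95% interval −3.16 to −0.98), 4.21-fold lower in DKO, with an adjusted p of 0.0137.

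K27-K4 at Pax8 (chr2:24471901-24476700) stood at 3.22 and 2.44 in WT clones 57 and 58 (709 and 443 reads) and at 0.67 and 1.07 in DKO clones 43 and 53 (178 and 173 reads). The DKO values were separate from the WT values and stayed 0.78 and 1.19 above IgG–IgG. The difference was −1.96 (SE 0.44), 3.88-fold lower, with an adjusted p of 0.00205. K4-K27 (chr2:24473251-24475950) moved by as much, from 3.11 and 2.61 in WT to 0.98 and 1.02 in DKO, a difference of −1.86 (SE 0.60) whose adjusted p of 0.108 missed the threshold. Total H3K27me3 (chr2:24472501-24477300) stood at 2.09 and 1.25 in WT and 0.53 and 0.70 in DKO, a difference of −1.05 (SE 0.41, adjusted p = 0.144). The groups did not overlap in any of the 4 ChIPs at Pax8. Less of a mark in every cell and its loss in some of the cells cannot be told apart in such libraries.

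With a DKO clone left out, and the other assumed to vary as the WT clones do, the Pax8 difference stayed at −2.09 and −2.05 for total H3K4me3 and at −1.75 and −2.16 for K27-K4, but neither was called, at an adjusted p of 0.256 or more. Over the E14 regions K4-K27 at Pax8 was called, at −1.69 with an adjusted p of 0.0200, and total H3K4me3 was not, at −1.95 with an adjusted p of 0.102.

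**Figure D4:**
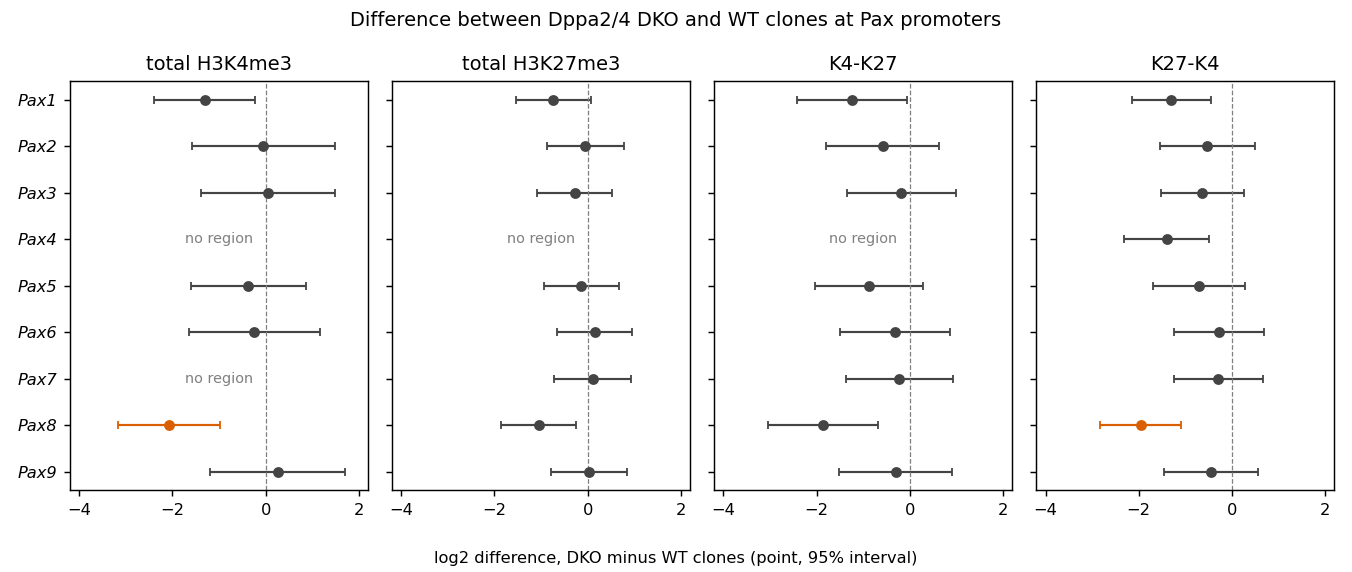
Difference between DKO and WT clones (horizontal axis, log2 scale) at each Pax gene in each ChIP, with the 95% interval of the limma fit as a bar and called differences in orange. Pax8 is called for total H3K4me3 (−2.07) and K27-K4 (−1.96), and the intervals of Pax2, Pax3, Pax5, Pax6, Pax7 and Pax9 cross 0 wherever a region was tested.

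Pax1, a sclerotome and thymus regulator, stood lower in both DKO clones in all 4 ChIPs, but no difference was called. Total H3K4me3 (chr2:147364651-147366600) stood at 1.85 and 0.95 in WT clones 57 and 58 and 0.10 and 0.08 in DKO clones 43 and 53, a difference of −1.31 (SE 0.55, adjusted p = 0.260). The DKO values lay at the IgG–IgG level of 0.05. K4-K27 stood at 2.57 and 2.52 in WT and 1.52 and 1.08 in DKO, a difference of −1.24 (SE 0.60, adjusted p = 0.283). K27-K4 stood at 2.72 and 2.18 in WT and 1.20 and 1.11 in DKO, a difference of −1.30 (SE 0.43, adjusted p = 0.0969). Total H3K27me3 differed least, by −0.74 (SE 0.41, adjusted p = 0.385), from 2.13 and 1.37 to 1.13 and 0.91. Over the E14 region K27-K4 at Pax1 was called, at −1.27 with an adjusted p of 0.0405, and without WT clone 58 it was called at −1.57, as was total H3K4me3 at −1.76.

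Pax4 had 1 region in the clones, for K27-K4 (chr6:28449901-28452600, upstream of its start). It stood at 1.82 and 1.36 in WT clones 57 and 58 and 0.34 and 0.02 in DKO clones 43 and 53, on 151, 118, 80 and 47 reads. The groups did not overlap, and the difference of −1.40 (SE 0.46) had an adjusted p of 0.0950. Without WT clone 58 it was called, at −1.63, and over the wider E14 region the difference was −0.67 and not called, from 1.18 and 0.59 in WT to 0.07 and 0.35 in DKO.

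Pax9, which acts beside Pax1 in sclerotome and thymus, had similar values in both genotypes. Its total H3K4me3 (chr12:56694601-56698050) stood at 2.23 and 1.08 in WT clones 57 and 58 and 2.08 and 1.74 in DKO clones 43 and 53. The groups overlapped, and the difference of 0.26 had a 95% interval from −1.19 to 1.70. Its K4-K27 stood at 3.43 and 2.86 in WT and 3.13 and 2.55 in DKO, a difference of −0.30 with an interval from −1.51 to 0.90.

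Pax2, a kidney and midbrain-hindbrain gene related to Pax5 and Pax8, differed by −0.05 (−1.58 to 1.49) in total H3K4me3 and by −0.58 (−1.79 to 0.63) in K4-K27. Pax5 differed by −0.37 (−1.61 to 0.87) and −0.88 (−2.03 to 0.27) in the same ChIPs. The K4-K27 values of Pax2, 3.56 and 3.17 in WT and 3.15 and 2.42 in DKO, did not overlap. Nor did those of Pax5, 2.88 and 2.75 in WT and 2.25 and 1.62 in DKO. In K27-K4 neither gene overlapped between genotypes. Pax2 stood at 3.39 and 2.72 in WT and 2.64 and 2.42 in DKO, a difference of −0.53 (−1.55 to 0.50), and Pax5 at 3.28 and 2.64 in WT and 2.37 and 2.13 in DKO, a difference of −0.71 (−1.70 to 0.28) that was called without WT clone 58, at −1.03. The difference between Pax8 and its relatives was not tested as such. The intervals at Pax2 and Pax5 reach beyond 1 log2 unit, so these data with 2 clones per genotype do not bound a loss to less than that.

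Pax3 and Pax7, the muscle and neural crest members, differed in K4-K27 by −0.18 (−1.34 to 0.99) and −0.22 (−1.38 to 0.93), and their groups overlapped. Pax3 K27-K4 differed by −0.63 (−1.52 to 0.26), from 2.65 and 2.07 in WT to 1.62 and 1.84 in DKO, without overlap. Pax6, the eye and islet regulator, differed by −0.24 in total H3K4me3, 0.15 in total H3K27me3, −0.32 in K4-K27 and −0.28 in K27-K4, with overlapping groups in each.

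Taken by direction, the reChIP differences of the members were below 0 at 8 of 8 genes for K4-K27 and 9 of 9 for K27-K4. All of these are WT regions, and of all WT regions 70.7% and 83.1% were below 0. The members' medians were −0.45 and −0.63, beside medians of −0.34 and −0.65 over the WT regions and of −0.01 and −0.15 over the WT and DKO regions together. The groups did not overlap, with DKO lower, at 4 of 8 members for K4-K27 (32.9% of WT regions, 19.2% of all) and 6 of 9 for K27-K4 (50.6% and 30.8%). In the totals the members' medians were −0.24 for H3K4me3 and −0.09 for H3K27me3, beside −0.01 and −0.33 over the WT regions. There, DKO lay below WT without overlap at 2 of 7 (22.4% of WT regions, 12.6% of all) and 2 of 8 (40.4% and 18.5%), which were Pax1 and Pax8 in each case. In both reChIPs the medians of the family were thus near those of WT regions in general.

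**Figure D5:**
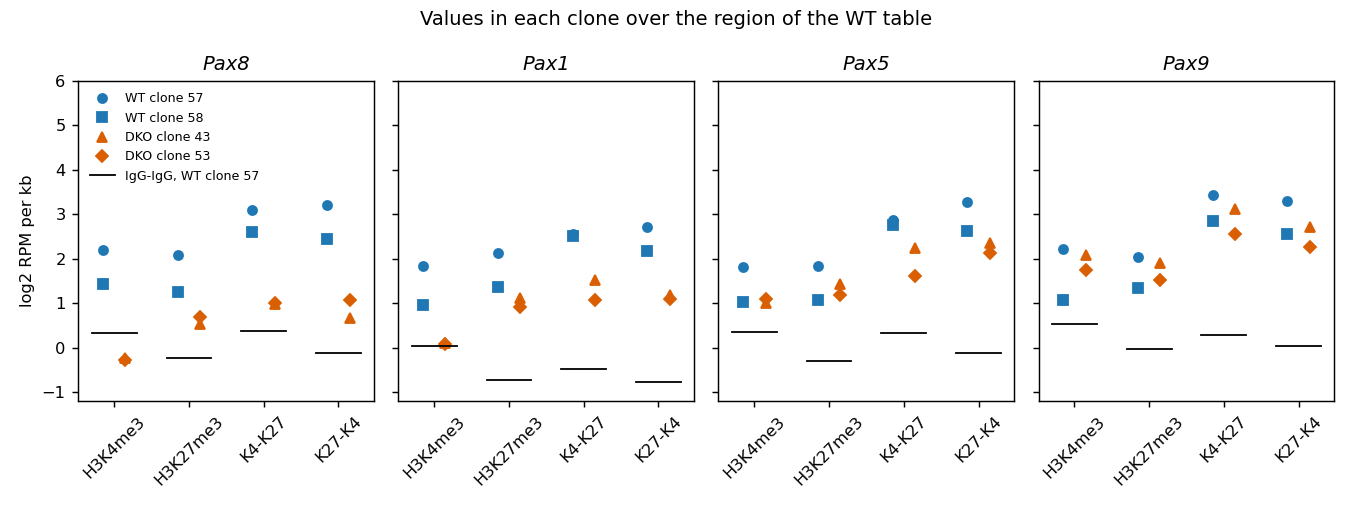
Log2 RPM per kb (vertical axis) in each clone over the region of the WT table of that ChIP, for Pax8, Pax1, Pax5 and Pax9, with the IgG–IgG library of WT clone 57 over the same region as a black line. At Pax8 the DKO clones lie below the WT clones in all 4 ChIPs (−0.23 and −0.28 against 2.20 and 1.44 for H3K4me3), and at Pax9 the genotypes overlap in each.

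Genes that work with Pax factors were counted in the same fits. Of 44 such genes, 29 had a total H3K4me3 region, 28 a total H3K27me3 region, 34 a K4-K27 region and 36 a K27-K4 region in the clones. 1 was called lower in each ChIP and none higher, a share near the 2.47%, 1.78%, 1.19% and 2.24% of all regions called lower, and it was Myod1, a master regulator of muscle and a target of Pax3 and Pax7. Its K27-K4 level was 3.05 on average in WT and 0.50 in DKO, a difference of −2.55 (SE 0.43, adjusted p = 1.28e-05), and its K4-K27 difference was −2.61 (SE 0.66, adjusted p = 0.0111). Its total H3K4me3 differed by −2.12 (SE 0.53, adjusted p = 0.00651) and its total H3K27me3 by −1.41 (SE 0.41, adjusted p = 0.0335). The median of the list was −0.43 in K4-K27 and −0.50 in K27-K4, and 31 of its 36 K27-K4 regions were below 0, again beside −0.34, −0.65 and 83.1% over the WT regions. The sine oculis homeobox, Eya and Dach genes, partners of Pax factors in eye, ear and muscle, numbered 12. None was called in any ChIP. Their K4-K27 differences ran from −1.45 to −0.02 at 12 regions, those of K27-K4 from −1.31 to 0.68 with 3 of 11 above 0, those of total H3K4me3 from −0.96 to 0.42 with 5 of 11 above 0 and those of total H3K27me3 from −0.53 to 0.50 with 4 of 9 above 0. None of the 9 midbrain-hindbrain and kidney genes that act with Pax2, Pax5 and Pax8 was called either. They ran from −0.73 to −0.34 in K27-K4, from −0.67 to 0.09 in K4-K27, from −0.49 to 0.08 in total H3K4me3 and from −0.38 to 0.14 in total H3K27me3.

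Each reChIP was also set against the total of its first antibody, over the regions of the reChIP's own table. A region entered by being high in that reChIP, so that a higher reChIP value was favoured by the choice of regions, at the members as at all others. Values are scaled to the reads of each library, so these differences do not compare amounts of chromatin. The totals came from 10% of the first precipitate, and the paper describes their signals as noisier. What this adds to the differences was not tested. In E14, K4-K27 was higher than total H3K4me3 at all 9 members in both replicates, by 1.76 at Pax4 to 2.52 at Pax3 with a median of 2.22, where the median over all 24540 regions was 0.64. There was no overlap at 9 of 9 members (51.9% of all regions). None was called at an adjusted p between 0.0727 and 0.0939, and 0.0% of all regions were, although 7086 regions were higher and 51 lower at an unadjusted p under 0.05. With the sequencing batch of each replicate as a block, 9 of 9 members were called higher (25.5% of all). At Pax3 the values were 2.25 and 2.14 for K4-K27 and −0.31 and −0.33 for total H3K4me3, without overlap, with an adjusted p of 0.0730 in the fit without the block.

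K27-K4 was higher than total H3K27me3 at 9 of 9 members in E14, by 0.99 at Pax4 to 2.45 at Pax5, and 7 of 9 were called higher, against 59.6% of all 36235 regions. There was no overlap at 9 of 9 members (85.5% of all). Pax1 (1.73, adjusted p = 0.0526) and Pax4 (0.99, adjusted p = 0.186, and −0.53 with libraries centred on their medians) were not called. With the block, 0 of 9 members were called, at an adjusted p between 0.0658 and 0.304, while 41.6% of all regions were. The median of the members, 2.22, stood beside a median of 1.75 over all regions.

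In the WT clones K4-K27 was higher than total H3K4me3 at 8 of 8 members, by 1.24 at Pax6 to 2.15 at Pax2, with a median of 1.74 against 0.46 over all 26544 regions. No overlap was seen at 8 of 8 (35.7% of all). None was called (0.139% of all were called higher), and with the clone as a block 7 of 8 were (13.2% of all). K27-K4 exceeded total H3K27me3 at 9 of 9 members, from 0.82 at Pax1 and Pax3 (−0.01 at both with centred libraries) to 1.39 at Pax5, with a median of 1.19 against 0.91. 1 of 9 was called, Pax4 at 1.29 (adjusted p = 0.0431), against 24.4% of all 31231 regions, and 6 of 9 with the clone as a block (27.2% of all). No overlap was seen at 9 of 9 members (65.3% of all). The comparisons of 1 line share libraries with one another.

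The order of the antibodies was compared next. In E14, K27-K4 minus K4-K27 ran from 0.09 at Pax4 to 0.57 at Pax8 with a median of 0.38, where the median over all 21857 shared regions was 0.70, and 0 of 9 members and 0.0% of all regions were called by limma (55 regions were higher and 0 lower at an unadjusted p under 0.05). With each library centred on its median the difference was below 0 at 9 of 9 members, and the replicates went different ways. In replicate 1 the difference was above 0 at 1 of 9 members, Pax8, with a median of −0.25, and in replicate 2 at 9 of 9 with a median of 0.93.

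In the WT clones the regions of the reChIP tables shared coordinates at 332 places and at no Pax gene. Over the E14 shared regions K27-K4 was the higher at 9 of 9 members in both WT clones, with medians of 0.87 in clone 57 and 0.35 in clone 58. The median over all 21857 of these regions was −0.23. 0 of 9 were called (1.32% of all regions were called higher and 29.7% lower). With the clone as a block the adjusted p of limma ran from 0.00889 at Pax9 to 0.264 at Pax4. None was called, as the differences, from 0.39 at Pax3 to 0.73 at Pax4, were below 1. With each library centred on its median over these regions 9 of 9 were called higher (33.8% of all). In the DKO clones K27-K4 was also the higher at 9 of 9 members, with medians of 0.21 in clone 43 and 0.59 in clone 53.

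The genes with the most similar levels were also sought. Of 17312 other genes with a promoter region in the E14 K27-K4 table, those nearest to the median profile of the 9 members over the 24 ChIP libraries were Msx1 and Msx1os, which lie in the same region (chr5:37812601-37839750), with a root mean square difference of 0.11 log2 units, and Hlx (chr1:184715401-184737750), with 0.12. Msx1 is a homeobox gene of tooth and craniofacial development and Hlx one of the gut and blood. Of the members themselves, Pax3 (0.22) and Pax6 (0.22) lay closest to their own median profile, Pax8 lay at 0.65 and Pax4 farthest, at 1.38.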

How the data were processed

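The deposited tables hold log2 RPM (library-scaled reads) per kb of region, which the authors computed in SeqMonk over the regions they list for each line and ChIP. The study's methods describe EPIC2 calls in bins of 100 bases against IgG–IgG, but 100% of the regions of each table start and end on a grid of 150 bases and 24.9% to 27.6% on one of 100, so the settings behind these regions differ from those or are not given in the sources used here. Libraries were MNase ChIP-seq on mm10 (GRCm38.p6). The submitters' processing notes name Trim Galore 0.6.6, BWA 0.7.13, SAMtools 1.9, Picard 2.6.0, deepTools 3.5.0 and MACS2. The authors' values step in whole reads, from which read counts were recovered, and regions without a read carry a value standing for 0.9 reads. Read counts behind a value are printed with it and limit its precision by counting error only. 32 columns of other samples or summaries were not used. Depth ran from 6741244 to 47903462 reads per library.

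Regions were joined to RefSeq start sites (1.5 kb either side), and all 9 Pax genes were named, as a rule. The members and the list of 44 partner genes were chosen with earlier results of these data known. Because the values are log2, limma 3.58.1 (R 4.3.3; lmFit, eBayes with trend and robust) was used on them without a pseudocount or filter, with Benjamini-Hochberg adjustment over all regions tested and calls at an adjusted p under 0.05 and a log2 difference above 1. DKO and WT were compared over the union of the regions of their tables of a ChIP, and a member was read at its WT region. Scripts were run with Python 3.11.15, numpy 2.4.6, pandas 2.3.3 and matplotlib 3.10.9 and tested on simulated data. For DKO against WT, 200 regions were changed in each simulation. A log2 shift of 3 was recovered in 17% for K4-K27, 42% for total H3K4me3, 41% for K27-K4 and 77% for total H3K27me3. A shift of 1.5 was recovered in 2%, 4%, 3% and 19%, in that order. Against the totals, recovery of a shift of 3 ran from 2% (WT K4-K27) to 60% (WT K27-K4). With so few regions changed, many true differences in the simulations were not called. The adjusted p depends on that number, and 643 (K4-K27) to 1745 (total H3K4me3) regions were called for DKO against WT in the data. These shares therefore do not measure the power of the fits. Alternatives changed the centring, the variance model, the samples fitted, the promoter window (0.5 or 5.0 kb) and the regions, left out each library, or blocked on replicate.

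In E14 a replicate number marks a shared sequencing batch and in WT a shared clone, as the labels give it, so samples could be paired there. The main fits did not use this pairing, which entered only as the block among the alternatives. Deviations of same-numbered libraries from their group means correlated at −0.215 to 0.576 between ChIPs in E14 and at −0.206 to 0.391 in WT, over 21857 regions.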

Additional observations from a re-analysis of the deposited data

How the results depend on the processing

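The 76 results for single Pax genes were recomputed in 940 alternatives, of which 770 kept direction and side of the threshold, 40 lost a call, 88 gained one and 42 changed sign. The lower Pax8 values in DKO kept their direction in every alternative run, between −2.45 and −1.70 in total H3K4me3 and between −2.35 and −1.56 in K27-K4. No alternative varied the depth, so what it limits was not tested. Where the cause of a change is not named, the cause was not tested.

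Centring each library on its median gave 2 called members in place of 1 for DKO total H3K4me3, 1 in place of 0 for DKO K4-K27, 6 in place of 0 for E14 K4-K27 against total H3K4me3, 0 in place of 7 for E14 K27-K4 against total H3K27me3, 6 in place of 0 for WT K4-K27 against total H3K4me3, 0 in place of 1 for WT K27-K4 against total H3K27me3, and 9 in place of 0 for the WT orders over the E14 shared regions (an alternative chosen after seeing the data). It turned the E14 difference between the orders to −0.50 at Pax1, −0.23 at Pax2, −0.46 at Pax3, −0.59 at Pax4, −0.17 at Pax5, −0.26 at Pax6, −0.37 at Pax7, −0.11 at Pax8 and −0.30 at Pax9, so that the order has no fixed sign. It also turned DKO total H3K27me3 at Pax9 to −0.014, E14 K27-K4 against total H3K27me3 at Pax4 to −0.53, and WT K27-K4 against total H3K27me3 to −0.015 at Pax1 and −0.013 at Pax3. Centring moved the split of called regions from 21586 higher and 11 lower to 9540 and 4621 for E14 K27-K4 against total H3K27me3, from 37 and 0 to 2303 and 1318 for WT K4-K27 against total H3K4me3, and from 289 and 6486 to 7397 and 4603 for the WT orders.

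All libraries in 1 fit gave 1 called member for DKO K4-K27, 9 and 6 for K4-K27 against total H3K4me3 in E14 and WT, and 3 for WT K27-K4 against total H3K27me3. Without the variance trend 0 members were called for DKO K27-K4 (Pax8, adjusted p = 0.107) and 0 for WT K27-K4 against total H3K27me3, where the 0.5 kb window also gave 0. Over the E14 regions, 0 were called for DKO total H3K4me3, 1 for DKO K4-K27 and 2 for DKO K27-K4.

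Without 1 library at a time, called members ranged from 0 to 2 for DKO total H3K4me3, from 0 to 4 for DKO K27-K4, from 0 to 9 for E14 K4-K27 against total H3K4me3, from 0 to 9 for E14 K27-K4 against total H3K27me3 and from 0 to 1 for WT K27-K4 against total H3K27me3. For DKO, the counts of 2 and 4 were reached without WT clone 58 and that of 0 without clone 43 or clone 53. With 1 library left in a group, it is assumed to vary like those of the other. Differences whose sign turned when 1 library was left out ranged, for DKO total H3K4me3, from −0.60 to 0.50 at Pax2, −0.75 to 0.017 at Pax5, −0.74 to 0.25 at Pax6, −0.39 to 0.49 at Pax3 and −0.32 to 0.83 at Pax9. For DKO total H3K27me3 they ranged from −0.42 to 0.32 at Pax2, −0.70 to 0.15 at Pax3, −0.53 to 0.25 at Pax5, −0.093 to 0.40 at Pax6, −0.36 to 0.58 at Pax7 and −0.32 to 0.37 at Pax9. For DKO K4-K27 they ranged from −0.57 to 0.21 at Pax3, −0.89 to 0.25 at Pax6 and −0.50 to 0.053 at Pax7, and for DKO K27-K4 from −0.64 to 0.067 at Pax7. The E14 difference between the orders ranged from −0.21 to 0.38 at Pax4, −0.42 to 0.78 at Pax1, −0.27 to 1.17 at Pax2, −0.44 to 0.88 at Pax3, −0.21 to 1.23 at Pax5, −0.19 to 1.04 at Pax6, −0.23 to 0.86 at Pax7, −0.071 to 1.21 at Pax8 and −0.26 to 1.02 at Pax9, and it was below 0 at all 9 genes without replicate 2 of K27-K4.

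With the replicate number as a block, in which the samples were paired by batch or clone, 9 members in place of 0 were called for E14 K4-K27 against total H3K4me3, 0 in place of 7 for E14 K27-K4 against total H3K27me3, 7 in place of 0 for WT K4-K27 against total H3K4me3 and 6 in place of 1 for WT K27-K4 against total H3K27me3. It changed the member counts for neither comparison of the orders (0 of 9 in E14 and over the E14 shared regions in WT), while over all regions of the E14 comparison it gave 1523 calls in place of 0. No paired analysis was possible because the clone numbers differ for DKO against WT.

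Over all regions, the number called for DKO against WT ranged from 74 to 6018 around 1745 for total H3K4me3, from 0 to 1468 around 1468 for total H3K27me3, from 243 to 7715 around 643 for K4-K27 and from 482 to 8630 around 1341 for K27-K4. The 0 came with centring, at 2978 higher and 4711 lower regions at an unadjusted p under 0.05 by limma. Against the totals it ranged from 0 to 14363 around 0 (E14 K4-K27), from 1647 to 29627 around 21597 (E14 K27-K4), from 11 to 4489 around 37 (WT K4-K27) and from 569 to 8511 around 7616 (WT K27-K4). For the orders it ranged from 0 to 1523 around 0 in E14 and from 0 to 12000 around 7 in WT.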
